A study of Juglans regia with 15 samples.

Results

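The comparison concerns the first part of seed coat development in the common walnut, Juglans regia, and sets the endopleura at 91 days after pollination (DAP) against the endopleura at 35 DAP. The endopleura is the thin skin that encloses the kernel. All libraries came from the cultivar Linzaoxiang without any treatment, and in each one the endopleuras of several nuts had been pooled before RNA extraction. The 2 groups hold 3 libraries each, so 6 of the 15 libraries of the series enter the comparison itself. The 3 libraries of 63 DAP served to place each change before or after 63 DAP. The study calls each pool a biological replicate. No source says that the pools of a stage came from separate trees. The p-values and standard errors therefore measure the spread between pools, estimated over all 15 libraries and not only the 6 compared. That spread may differ from the spread between trees.

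The seed coat of a dicot grows first by cell division and expansion, and then differentiates. It passes sugars from the maternal tissue to the embryo, lays down a cuticle, and in walnut stores phenolic compounds, among them hydrolysable tannins built from gallic acid and condensed tannins built from flavan-3-ols. Anthocyanidin reductase supplies flavan-3-ols, and UDP-glucosyltransferases and serine carboxypeptidase-like acyltransferases are known in other plants for making and using glucose esters of phenolic acids.

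Expression was given as FPKM, a fragment count divided by transcript length and library size, for 39414 genes. Summed FPKM per library ran from 851621 to 1007908 over the 9 libraries of 35, 63 and 91 DAP, and 18900 to 20849 genes reached 1 FPKM. The unannotated gene JreChr12G11251 alone took 1.48% to 1.52% of the sum at 35 DAP and 5.54% to 7.01% at 63 DAP. Read counts cannot be had from FPKM alone, so the counting error of single values is unknown. Descriptions were at hand for 1732 of the genes tested, all from chromosome regions that the study examined, so the gene groups below cover only part of each pathway. Of the genes listed in 20 groups, 250 of 449 passed the filter on low values and are the ones counted below.

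Most genes changed between 35 and 91 DAP, and in the values as deposited more of them fell than rose. Of 22310 genes that reached 1 FPKM in 3 or more libraries, 13380 passed limma's test at an adjusted p of 0.05, which is 60% of those tested. The lower calls made up 8381 genes (37.6% of those tested) and the higher calls 4999 genes (22.4%). Changes are given as differences in log2(FPKM + 1), a measure that shrinks the change of weakly expressed genes, and on it the median change of a called gene was +0.92 for rises and -1.17 for falls. A change of at least 1 on that scale was reached by 2222 rises and 4865 falls, and in 13122 of the called genes (98.1%) the libraries of the 2 stages did not overlap, which holds for 4880 rises (21.9% of the genes tested) and 8242 falls (36.9%).

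The balance of rises and falls depended on how libraries were scaled to each other. Rises made up 37.4% of the calls as deposited, 54.8% after quantile normalization, 44.9% after median-ratio scaling and 27.9% with every library rescaled to one sum (TPM). The median change over all genes tested was -0.17 as deposited, and 0.10, -0.05 and -0.34 under these scalings. Quantile normalization also turned the balance of both steps, with 5782 rises and 5463 falls from 35 to 63 DAP and 3269 rises and 2998 falls from 63 to 91 DAP. Under all 4 scalings 10097 genes were called in one direction, 3784 of them higher and 6313 lower at 91 DAP.

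**Figure D1:**
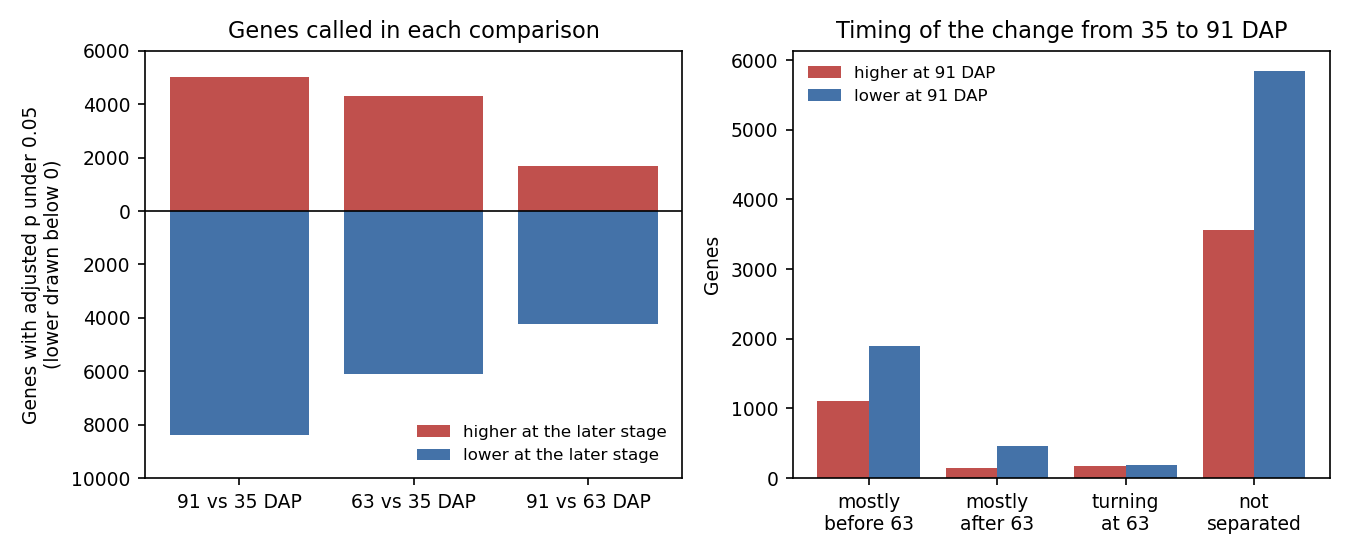
Left, genes called higher (drawn above 0) and lower (drawn below 0) at the later stage in each of 3 comparisons, with the number of genes on the y axis; right, the genes called between 35 and 91 DAP by the timing of their change. Lower calls outnumbered higher calls in all 3 comparisons as deposited (not after quantile normalization), and the step from 35 to 63 DAP held more calls (10429) than the step from 63 to 91 DAP (5914).

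The earlier step held the larger share of the change. Between 35 and 63 DAP 10429 genes were called (46.7% of those tested), with 4316 higher (19.3%) and 6113 lower (27.4%). Between 63 and 91 DAP the number was 5914 (26.5%), with 1693 higher (7.59%) and 4221 lower (18.9%). For the genes called over the whole interval, the median share of the log2 change already reached at 63 DAP was 69.9% for rises (interquartile range 47.1% to 93.3%) and 64.8% for falls (41.6% to 83.6%). Both steps use the 63 DAP libraries, so their values are set side by side and not correlated.

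Each called gene was then placed by a test of the difference between its 2 steps. A gene counted as early where the step to 63 DAP exceeded the step after it, as late where the reverse held, and as turning where both steps were called with opposite signs. Early genes numbered 3007, of which 1114 rose (4.99% of the genes tested) and 1893 fell (8.48%). Late genes numbered 614, with 151 rises (0.677%) and 463 falls (2.08%). Another 354 genes turned at 63 DAP (172 higher, 0.771%, and 182 lower at 91 DAP, 0.816%), and for the remaining 9405 (70.3% of the calls) the 2 steps could not be separated beyond the spread between libraries. The late and turning classes were the more open to scaling. Under all 4 scalings 2404 of the 3007 early genes kept their class. The same held for 371 of the 614 late and 182 of the 354 turning genes. The early falls were the ones most open to the log scale. With 0.1 in place of 1 added to each FPKM value, 1167 of the 1893 early falls kept their class against 1057 of the 1114 early rises, and 950 of the early falls had a stage mean under 1 FPKM. In FPKM itself the median early fall had run 96.0% of its course by 63 DAP.

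**Figure D2:**
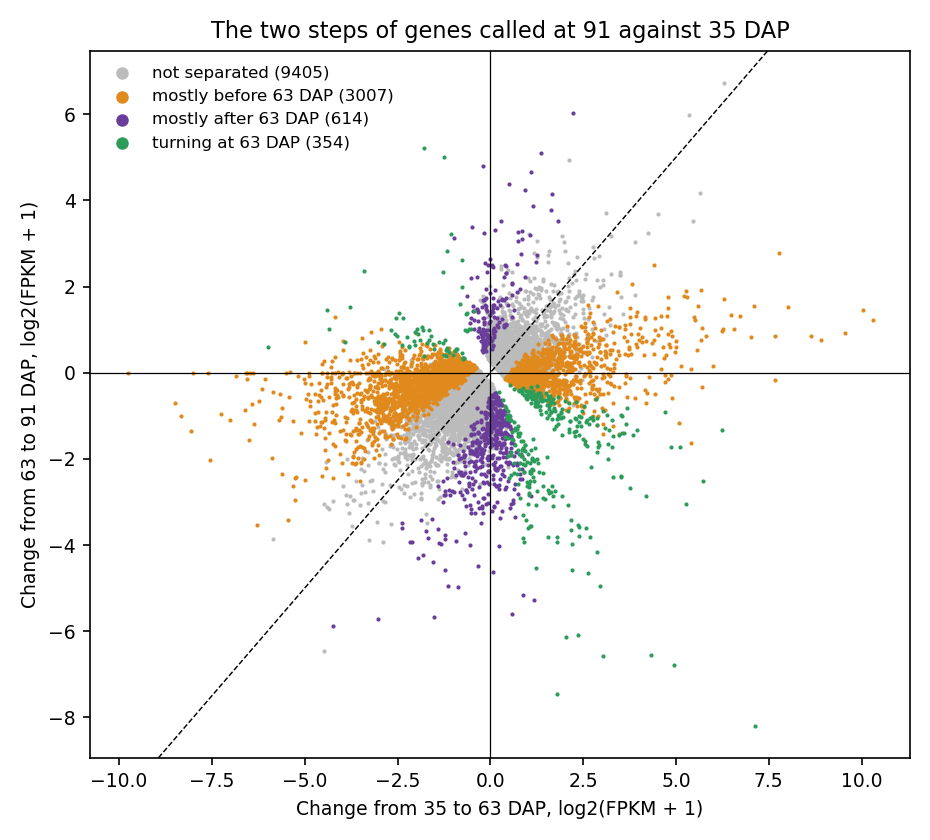
Change from 35 to 63 DAP (x axis) against change from 63 to 91 DAP (y axis), both on the log2(FPKM + 1) scale, for each of the 13380 genes called between 35 and 91 DAP; the dashed line marks equal steps. Early genes (3007, orange) lie nearer the horizontal axis and late genes (614, purple) nearer the vertical one. A gene of either class may change in both steps, as did the early JreChr16G10714 (-6.28 and -3.54).

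The gene groups did not share one direction. The share called lower stood above the 37.6% of all genes by the widest margin in protease (9 of 10), phenolic glucoside (3 of 4), cell division (16 of 23) and cell wall genes (14 of 22), and was also above it in lignin, cuticle, ribosomal, hormone, photosynthesis and MADS-box genes, and by 1 percentage point or less in homeobox, bHLH and sugar genes. The share called higher stood above the 22.4% of all genes in seed storage (5 of 5) and defence genes (14 of 25). The same held for NAC (3 of 7), transport (3 of 7), flavonoid (5 of 12) and AP2/ERF genes (4 of 10). It was close to that share in MYB (4 of 17), bHLH (3 of 13) and MADS-box genes (1 of 4). These shares describe the listed members and were not tested against other genes.

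**Figure D3:**
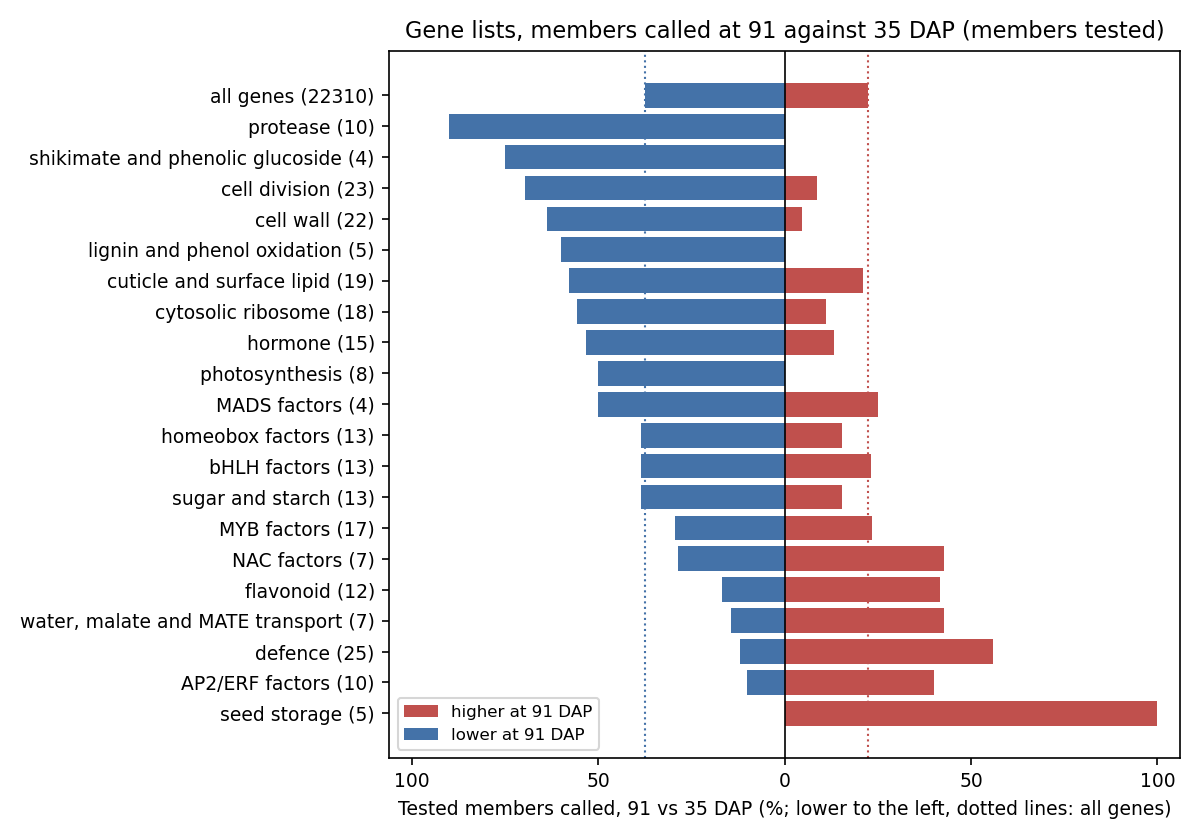
Share of the tested members of each gene group called lower (blue, to the left) or higher (red, to the right) at 91 against 35 DAP, in percent, with the number tested in parentheses; the dotted lines give the shares over all 22310 genes, 37.6% lower and 22.4% higher. All 5 seed storage genes were higher, and 9 of 10 proteases were lower.

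Genes of the cell cycle fell, mostly before 63 DAP. Of 30 listed members 23 were tested, and 16 were lower and 2 higher at 91 DAP, with a median change of -2.04 against -0.17 over all genes. The lower members covered D-type cyclins, which act at entry into the cycle, A-type and B-type cyclins, kinesins of the spindle and phragmoplast, the catalytic subunit of DNA polymerase epsilon and the small subunit of ribonucleotide reductase, which makes DNA precursors. The count of lower members was 15 to 18 under the scalings and 15 to 16 when any one library was left out.

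The kinesin JreChr13G10468 (chromosome 13, bases 17480955 to 17491881 of the authors' genome) belongs to the class that works in the phragmoplast, where the new cell wall forms. It read 12.6, 11.97 and 11.4 FPKM at 35 DAP, 0.573, 0.950 and 0.881 at 63 DAP, and 0.027, 0.057 and 0.129 at 91 DAP. The 3 stages did not overlap, and the change was -3.60 ± 0.12 (SE, n = 3 per stage; limma, adjusted p = 1.39e-11). JreChr09G12371, a kinesin of the minus-end class, stood at 16.6, 12.7 and 14.1 FPKM at 35 DAP, at 1.66, 1.05 and 1.35 at 63 DAP, and at 0.066, 0.119 and 0.057 at 91 DAP (-3.83 ± 0.15, adjusted p = 4.62e-11). Both had lost most of their level within the first step.

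Of the 16 falling cell cycle genes 14 were early, and the median member had run 93.2% of its fall in FPKM by 63 DAP (73.3% to 99.0%). With 0.1 added in place of 1, 4 of the 14 kept the early class. The D-type cyclins JreChr06G11540 and JreChr06G11603, named here after their values were seen, share an annotation and a region of chromosome 6, so the counting could split reads between them. They ran from 10.997 to 13.02 FPKM over the 35 DAP libraries and from 0.034 to 0.198 at 91 DAP. A further D-type cyclin, JreChr01G13580, moved the other way, from 10.8, 11.2 and 9.55 FPKM at 35 DAP to 28.2, 27.2 and 31.9 at 63 DAP and 15.6, 20.5 and 21.02 at 91 DAP (+0.79 ± 0.25, adjusted p = 0.0138), a call lost as TPM (adjusted p = 0.0583). The core histone JreChr13G10876, the other rising member, was listed at 0 in all 35 DAP libraries and at 11.8, 7.89 and 7.19 FPKM at 91 DAP. JreChr13G10886, a subunit of the cyclin-dependent kinase and the most abundant member, held between 201 and 272 FPKM at 35 and 91 DAP and was not called (-0.24 ± 0.15, adjusted p = 0.176), except as TPM, where it was lower (adjusted p = 0.0147). In bulk tissue, fewer dividing cells and less RNA per dividing cell cannot be told apart.

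Among hormone-related genes 8 of 15 tested were lower and 2 higher, with a median of -0.61. Both gibberellin-regulated GASA genes, which encode small cysteine-rich proteins of growing tissue, were among the lower ones. JreChr16G10714 (chromosome 16, bases 2023735 to 2024175) read 1444, 1202 and 2059.8 FPKM at 35 DAP, 13.3, 25.9 and 18.8 at 63 DAP, and 0.678, 0.888 and 0.543 at 91 DAP. It was among the strongly expressed genes of the 35 DAP endopleura and stood below 1 FPKM in every 91 DAP library (-9.82 ± 0.36, adjusted p = 3.05e-11). The second GASA gene, JreChr12G11788, fell from 33.1, 34.8 and 35.3 FPKM to 1.298, 0.098 and 0.179 and was listed at 0 in all 91 DAP libraries (adjusted p = 7.56e-11).

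Of 7 tested auxin genes 4 were lower, 1 was higher and 2 were not called. JreChr08G12053, a SAUR gene of the family that auxin induces rapidly, stood at 49.1, 32.5 and 59.96 FPKM at 35 DAP, at 2.34, 1.71 and 3.76 at 63 DAP and at 1.34, 1.12 and 1.00 at 91 DAP (-4.45 ± 0.23, adjusted p = 9.84e-10). JreChr09G11572, a homolog of the auxin influx carrier AUX1, fell from between 41.2 and 44.1 FPKM to between 7.22 and 7.99 (-2.34 ± 0.27, adjusted p = 3.71e-06). JreChr01G12335, a cytochrome P450 of brassinosteroid synthesis, was late. Its libraries held 4.89, 4.98 and 4.84 FPKM at 35 DAP, 5.31, 3.90 and 1.93 at 63 DAP, and 0, 0.125 and 0.126 at 91 DAP (-2.45 ± 0.21, adjusted p = 1.44e-07). These 3 genes were named after their values were seen. The risers were the auxin response factor JreChr13G10207, from 2.65, 2.63 and 2.30 FPKM to 5.49, 5.34 and 7.20, and the ethylene receptor JreChr07G10377, from 17.4, 17.3 and 18.4 to 25.1, 29.2 and 32.1.

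Cell wall genes were lower in 14 of 22 tested members and higher in 1, with a median of -1.24, and the lower count stayed between 14 and 16 when any one library was left out. Only 2 of the 14 were early, and none was late. In FPKM, however, 13 of the 14 had run over 50% of their fall by 63 DAP, with a median of 83.4%. JreChr14G11403 encodes an expansin, a protein that loosens walls during growth. It read 12.8, 15.1 and 10.6 FPKM at 35 DAP and 0.675, 0.378 and 0.433 at 63 DAP, and it was listed at 0 in all libraries of 91 DAP (adjusted p = 4.78e-11). JreChr04G11905, a fasciclin-like arabinogalactan protein of the cell surface, went down at both steps, from 31.8, 32.9 and 33.8 FPKM through 4.61, 4.12 and 5.70 to 0.788, 1.35 and 1.23 (-4.005 ± 0.24, adjusted p = 3.9e-09). The pectinesterase JreChr03G12057, an enzyme that removes methyl groups from pectin and was named after its values were seen, fell from 182, 198 and 198 FPKM to 44.7, 43.5 and 36.5 and then to 12.3, 13.5 and 15.1 (-3.73 ± 0.24, adjusted p = 9.93e-09).

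The rising wall gene was the beta-1,3-glucanase JreChr13G10746, with 7.89, 9.68 and 8.14 FPKM at 35 DAP, 16.6, 13.9 and 19.1 at 63 DAP, and 29.3, 34.3 and 42.6 at 91 DAP (+1.92 ± 0.17, adjusted p = 1.85e-07). Other beta-1,3-glucanases of the group, JreChr03G12051, JreChr12G10792 and JreChr01G10831, named after their values were seen, fell, so the family did not move as one. JreChr13G10427, an exostosin family protein of xylan synthesis and the most abundant wall gene, lay between 96.2 and 138 FPKM at 35 and 91 DAP with overlapping libraries and was not called (adjusted p = 0.272).

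Genes of the cuticle and of surface lipids were lower in 11 of 19 tested members and higher in 4, with a median of -1.38. All 3 glycerol-3-phosphate acyltransferases of the cutin-making class fell, and they share an annotation and a region of chromosome 9, so the counting could split reads between them. JreChr09G11569 read 23.9, 24.1 and 25.9 FPKM at 35 DAP, 6.23, 9.64 and 3.50 at 63 DAP, and 0.760, 0.216 and 0.790 at 91 DAP (-4.03 ± 0.28, adjusted p = 1.93e-08). JreChr09G11589 followed the same course from 24.4, 25.34 and 30.2 FPKM to 1.62, 1.82 and 2.89 (-3.17 ± 0.21, adjusted p = 1.14e-08). For neither could the 2 steps be separated.

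Of the 3 tested lipid transfer proteins, which carry lipids outside the cell, 1 rose, 1 fell and 1 was not called. JreChr06G11418 rose from 144, 147 and 165 FPKM at 35 DAP to 509, 464 and 419.6 at 63 DAP and 542, 553 and 508 at 91 DAP (+1.81 ± 0.13, adjusted p = 3.4e-08), an early change. JreChr13G11259, named after its values were seen, fell from 93.4, 86.9 and 76.2 FPKM through 29.1, 26.1 and 22.1 to 11.3, 10.8 and 12.2 (-2.80 ± 0.24, adjusted p = 1.69e-07). JreChr13G10538, the most abundant member, held 496 to 571 FPKM at 35 DAP and 591 to 602 at 91 DAP and was not called (+0.15 ± 0.18, adjusted p = 0.5). The wax ester synthases JreChr06G10700 and JreChr06G10736, named after their values were seen, moved in opposite directions and at different times. The first went from 5.40, 4.49 and 4.19 FPKM to 0.287, 0.148 and 0.034 by 63 DAP, and was at 0, 0 and 0.125 at 91 DAP (-2.45 ± 0.12, adjusted p = 6.2e-10, early). The second held 0.392 to 0.680 FPKM at 35 and 63 DAP and reached 3.02, 3.59 and 2.65 at 91 DAP (+1.46 ± 0.18, adjusted p = 8.75e-06, late).

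GDSL lipases, enzymes with roles that include cutin assembly, gave 5 falls and 2 rises among 10 tested. JreChr08G11341 rose from 3.65, 5.26 and 5.86 FPKM to 22.3, 17.8 and 15.4 (+1.72 ± 0.20, adjusted p = 3.92e-06). JreChr13G10861 fell late, from 2.52, 6.65 and 2.21 FPKM at 35 DAP and 7.11, 4.05 and 6.75 at 63 DAP to 0.097, 0.058 and 0 (-2.07 ± 0.27, adjusted p = 1.03e-05). The pair JreChr04G12058 and JreChr04G11996, singled out after their values were seen and possibly sharing reads, was detected mainly at 63 DAP. JreChr04G12058 read 0, 0.097 and 0 FPKM at 35 DAP, 17.5, 14.6 and 5.23 at 63 DAP, and 0.338, 0.023 and 0 at 91 DAP. Its rise to 63 DAP (+3.56, adjusted p = 1.96e-07) and its fall afterwards (-3.45, adjusted p = 1.68e-06) were both called, while 91 against 35 DAP was not called (adjusted p = 0.77).

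Serine carboxypeptidases fell as a family, one that holds both peptidases and the acyltransferases that use glucose esters of phenolic acids. All 6 tested members were lower at 91 DAP, with a median change of -4.63. Which of these roles the walnut proteins have is not given by the annotation. JreChr06G11597 (chromosome 6, bases 28556645 to 28560067) read 53.3, 41.2 and 64.8 FPKM at 35 DAP, 1.65, 1.16 and 1.49 at 63 DAP, and 0.251, 0.126 and 0.134 at 91 DAP (-5.51 ± 0.21, adjusted p = 4.31e-11). It was early, as were JreChr06G11536, JreChr06G11537 and JreChr06G11599 of the same region, among which reads could be split and which were named after their values were seen.

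The exception in time was JreChr13G10435 (chromosome 13, bases 17083318 to 17086161), the carboxypeptidase with the clearest late fall. It stood at 105, 179.5 and 96.3 FPKM at 35 DAP and at 282, 269 and 81.2 at 63 DAP, where the third library lay below all 35 DAP libraries. At 91 DAP it had dropped to 2.503, 3.19 and 2.69 FPKM (-5.02 ± 0.37, adjusted p = 3.76e-08). The step before 63 DAP was not called (+0.59, adjusted p = 0.219) and the step after it was (-5.61, adjusted p = 2.08e-07). Among the other proteases 2 of 3 subtilases fell, and so did the papain-type cysteine protease JreChr16G10763, from 284, 297 and 273 FPKM to 88.1, 109 and 135 (-1.38 ± 0.17, adjusted p = 8.32e-06).

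The UDP-glucosyltransferases of the class that joins glucose to phenolic acids fell with the early carboxypeptidases. JreChr06G11574 read 78.5, 52.9 and 89.8 FPKM at 35 DAP, 5.21, 4.79 and 4.81 at 63 DAP, and 0.591, 0.734 and 1.78 at 91 DAP (-5.21 ± 0.23, adjusted p = 1.73e-10). JreChr06G11633, a gene of the same class and chromosome region, fell from 61.0, 41.01 and 70.2 FPKM to 0.418, 0.661 and 1.56, and the counting could split reads between them. Arogenate dehydrogenase JreChr03G12439, an enzyme of tyrosine synthesis named after its values were seen, went from between 6.42 and 7.05 FPKM to between 0.767 and 1.02 (-2.005 ± 0.18, adjusted p = 2.69e-07). In the lignin and phenol oxidation group 3 of 5 tested genes were lower (2 after quantile normalization and after median-ratio scaling, 4 as TPM) and none higher, all at low levels. The laccase JreChr01G13033, of a family that oxidises lignin precursors, stood at 1.502, 2.26 and 1.98 FPKM at 35 DAP and at 0, 0 and 0.037 at 91 DAP (-1.52 ± 0.14, adjusted p = 5.31e-07). In all, 3 of 4 tested genes of the shikimate and phenolic glucoside group were lower, all early with 1 as the added value and 1 of them with 0.1.

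**Figure D4:**
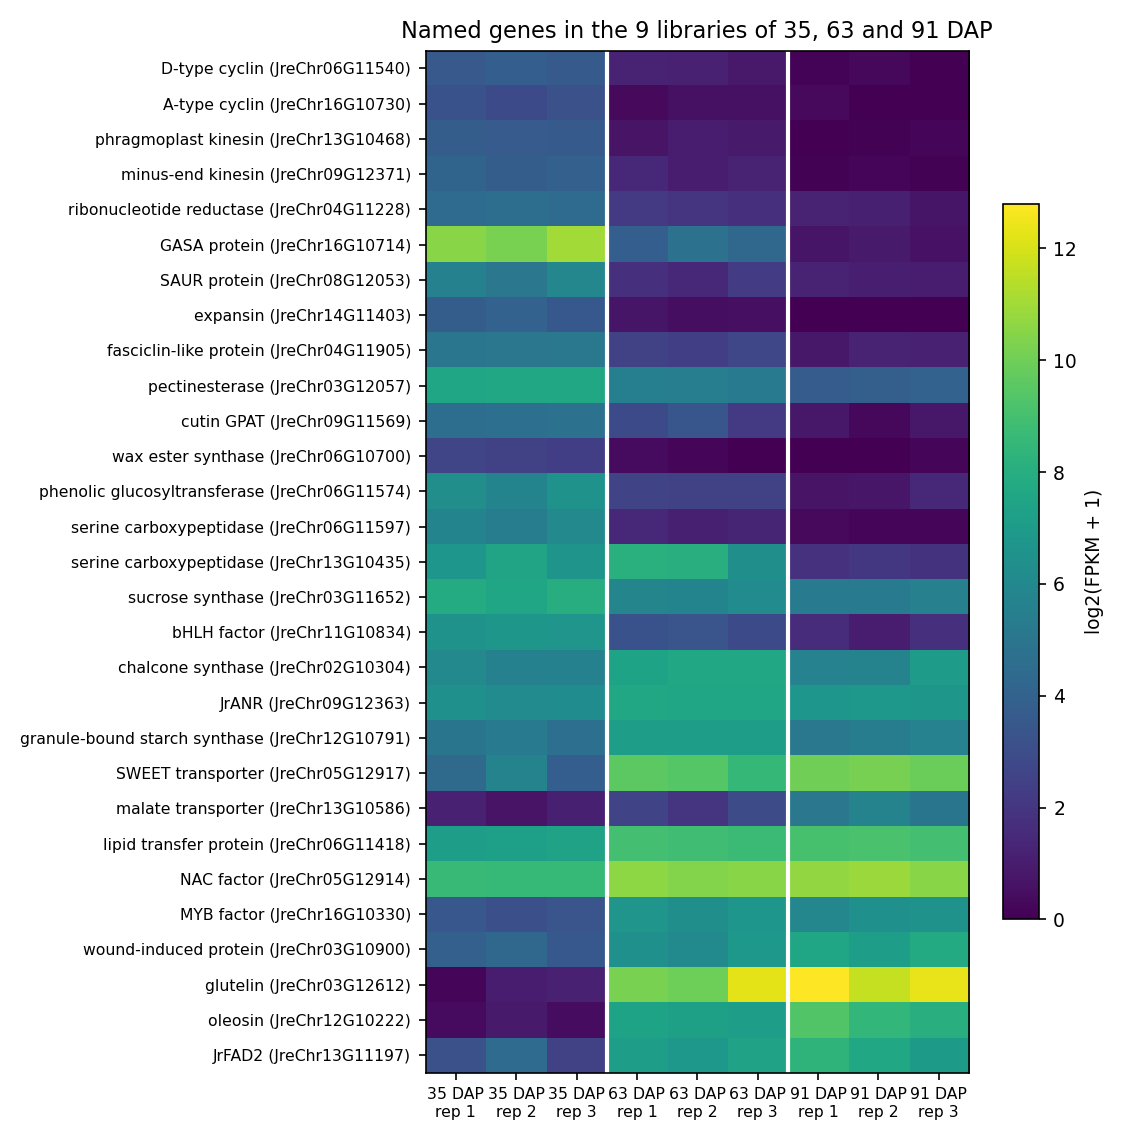
Expression, as log2(FPKM + 1) on the color scale, of 29 genes (rows) in each of the 9 libraries of 35, 63 and 91 DAP (columns; white lines separate the stages); rows were chosen from the gene groups, 8 of them after their values were seen. Cell cycle, growth, wall and phenolic glucoside genes darken from the left block to the right, chalcone synthase, JrANR and granule-bound starch synthase are brightest in the middle block, and storage genes brighten after 35 DAP.

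Flavonoid genes did not join this fall, and several were highest at 63 DAP. Of 12 tested members 5 were higher and 2 lower at 91 DAP (median +0.45), the lower count being 0 after quantile normalization and 3 as TPM. The rises were 2 genes of the isoflavone reductase class, 2 UDP-glucosyltransferases and 1 gene of the dihydroflavonol reductase class. Chalcone synthase, JrLDOX, JrANR and the tested gene of the flavonol synthase or flavanone 3-hydroxylase class were not called between 35 and 91 DAP. JrANR, JreChr09G12363 (chromosome 9, bases 7498722 to 7501474), encodes anthocyanidin reductase, the enzyme that makes epicatechin-type flavan-3-ols. It read 83.5, 71.0 and 72.6 FPKM at 35 DAP, 194, 187 and 189 at 63 DAP, and 102.8, 110.2 and 109 at 91 DAP. The stages did not overlap. The rise to 63 DAP (+1.32, adjusted p = 0.00019) and the fall after it (-0.82, adjusted p = 0.0131) were called, while 91 against 35 DAP missed the threshold (+0.50 ± 0.22, adjusted p = 0.0614). That last call rested on the fit, since limma gave an adjusted p = 0.00833 after median-ratio scaling and 0.000554 with only the libraries of 35, 63 and 91 DAP (0.000554 to 0.258 over all alternatives).

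Chalcone synthase JreChr02G10304, the first committed enzyme of the pathway, was singled out after its values were seen. It held 63.9, 48.2 and 47.8 FPKM at 35 DAP, 169, 196 and 195 at 63 DAP, and 49.4, 52.3 and 129 at 91 DAP. Its rise (+1.80, adjusted p = 0.00134) and its fall (-1.41, adjusted p = 0.0134) were called, and the third library of 91 DAP lay above the other 2. JrLDOX, JreChr03G12442, is described as a leucoanthocyanidin dioxygenase, and 1 of the 2 listed genes of that class was tested. Whether JrLDOX supplies the substrate of anthocyanidin reductase is not given by the annotation. It showed no such peak. Its libraries held 10.001, 12.8 and 4.11 FPKM at 35 DAP, 3.52, 11.1 and 6.15 at 63 DAP and 3.30, 5.92 and 3.37 at 91 DAP. They overlapped at every stage (-0.86 ± 0.38, limma, adjusted p = 0.068). Without the third 35 DAP library it was called lower (limma, adjusted p = 0.00887, and 0.00887 to 0.344 over all alternatives).

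The most abundant flavonoid-group gene was JreChr15G10250 of the isoflavone reductase class, a family of phenylpropanoid reductases. It ran from 639.97, 1106 and 465 FPKM at 35 DAP through 2584, 1772 and 2221 at 63 DAP to 1300.3, 1395 and 1275 at 91 DAP (+0.94 ± 0.28, adjusted p = 0.0108), a call lost after quantile normalization and without the third 35 DAP library. A second gene of the class, JreChr01G13452, rose at both steps, from 0.079, 0.238 and 0.142 FPKM through 5.10, 3.77 and 4.997 to 13.2, 12.8 and 31.9 (+4.02 ± 0.31, adjusted p = 5.46e-08). Another gene of the class, JreChr01G13428, fell from 7.62, 15.03 and 5.14 FPKM to 3.91, 3.29 and 2.93 (-1.12 ± 0.28, adjusted p = 0.00307, and 0.0573 after quantile normalization). The UDP-glucosyltransferase JreChr02G10232 rose early from a low level, from 0.762, 0.527 and 0.550 FPKM to 2.79, 3.61 and 3.44 (+1.32 ± 0.15 by 91 DAP, adjusted p = 4.14e-06).

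A peak at 63 DAP was more common than a dip in the values as deposited. Both steps were called with opposite signs in 923 genes, of which 727 peaked and 196 dipped, and 569 of them (2.55% of the genes tested) were not called between 91 and 35 DAP. Among the 1732 described genes tested 48 peaked and 13 dipped, shares close to those of all 22310 genes tested. The proline-rich protein gene JreChr10G12201 peaked, with 3.32, 3.29 and 2.32 FPKM at 35 DAP, 53.95, 46.4 and 37.1 at 63 DAP, and 18.3, 17.6 and 13.9 at 91 DAP. JreChr15G11105, described as a homolog of the stomatal receptor-like protein TOO MANY MOUTHS, peaked likewise, from between 4.11 and 6.48 FPKM to between 38.9 and 49.1 and then between 19.1 and 20.3. The beta-glucosidase JreChr13G10442 dipped, with 272, 264 and 320.1 FPKM at 35 DAP, 92.2, 57.8 and 63.0 at 63 DAP, and 157, 153 and 102 at 91 DAP. Granule-bound starch synthase JreChr12G10791, which makes amylose and was singled out after its values were seen, stood at 30.6, 35.9 and 24.5 FPKM, rose to 139, 138 and 145, and returned to 33.4, 39.8 and 50.5 (+2.19, adjusted p = 2.59e-06, and -1.76, adjusted p = 7.31e-05).

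In the sugar and starch group 5 of 13 tested genes were lower, a share near that of all genes, and 2 were higher. The rises numbered 5 after quantile normalization and 4 after median-ratio scaling, with 5 falls in both. All 3 called sucrose synthases, which cleave sucrose for use in the cell, fell early, and 2 of them lie in one region of chromosome 7 and could share reads. JreChr03G11652 went from 232, 187 and 251 FPKM to 56.4, 53.9 and 69.9 and then to 37.1, 38.8 and 45.9 (-2.42 ± 0.22, adjusted p = 3e-07). ADP-glucose pyrophosphorylase JreChr04G11920, the entry enzyme of starch synthesis, fell late. Its 199, 189 and 173 FPKM at 35 DAP and 196, 238 and 196 at 63 DAP overlapped, and 95.1, 96.0 and 89.0 remained at 91 DAP (-0.99 ± 0.12, adjusted p = 6.24e-06).

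The SWEET transporter JreChr05G12917 (chromosome 5, bases 8717124 to 8719280) rose most in this group. Its Arabidopsis counterpart, SWEET15, exports sucrose from the seed coat towards the embryo. It read 20.1, 50.96 and 13.1 FPKM at 35 DAP, 747, 686 and 369 at 63 DAP, and 1033, 1168 and 967 at 91 DAP (+5.40 ± 0.38, adjusted p = 1.98e-08), an early change. The trehalose-phosphatase JreChr07G11790 rose as well, from 7.90, 4.42 and 7.33 FPKM to 38.9, 58.9 and 72.3 (+2.92 ± 0.36, adjusted p = 6.92e-06), while the trehalose-6-phosphate synthase JreChr09G10277, which acts one step before it, fell from 4.11, 3.56 and 3.84 FPKM to 0.157, 0.204 and 0.394 (-1.95 ± 0.15, adjusted p = 5.46e-08).

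Transporters of water, malate and multidrug and toxic compounds (MATE) went both ways, with 3 of 7 tested genes higher and 1 lower. JreChr13G10586 (chromosome 13, bases 19473209 to 19475550), an aluminium-activated malate transporter, rose at both steps, from 1.24, 0.593 and 1.199 FPKM through 5.22, 2.96 and 6.92 to 32.3, 52.1 and 30.6 (+4.27 ± 0.25, adjusted p = 3.37e-09). Of 5 tested MATE carriers 1 fell and 1 rose, both late, and 3 were not called. JreChr01G13593 stood at 136.6, 132 and 139.7 FPKM at 35 DAP and 96.6, 102 and 90.9 at 63 DAP, and fell to 36.8, 29.9 and 23.1 at 91 DAP (-2.17 ± 0.17, adjusted p = 5.23e-08). JreChr03G12060 stayed at or below 0.515 FPKM at 35 and 63 DAP and reached 2.82, 2.67 and 3.80 at 91 DAP (+1.51 ± 0.16, adjusted p = 1.48e-06). The aquaporin JreChr10G10281 was called higher although its libraries overlapped, with 59.7, 99.9 and 68.0 FPKM at 35 DAP and 860.04, 625 and 79.4 at 91 DAP (+2.23 ± 0.65, adjusted p = 0.00839, and 0.051 with only the 35 and 91 DAP libraries in the fit).

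**Figure D5:**
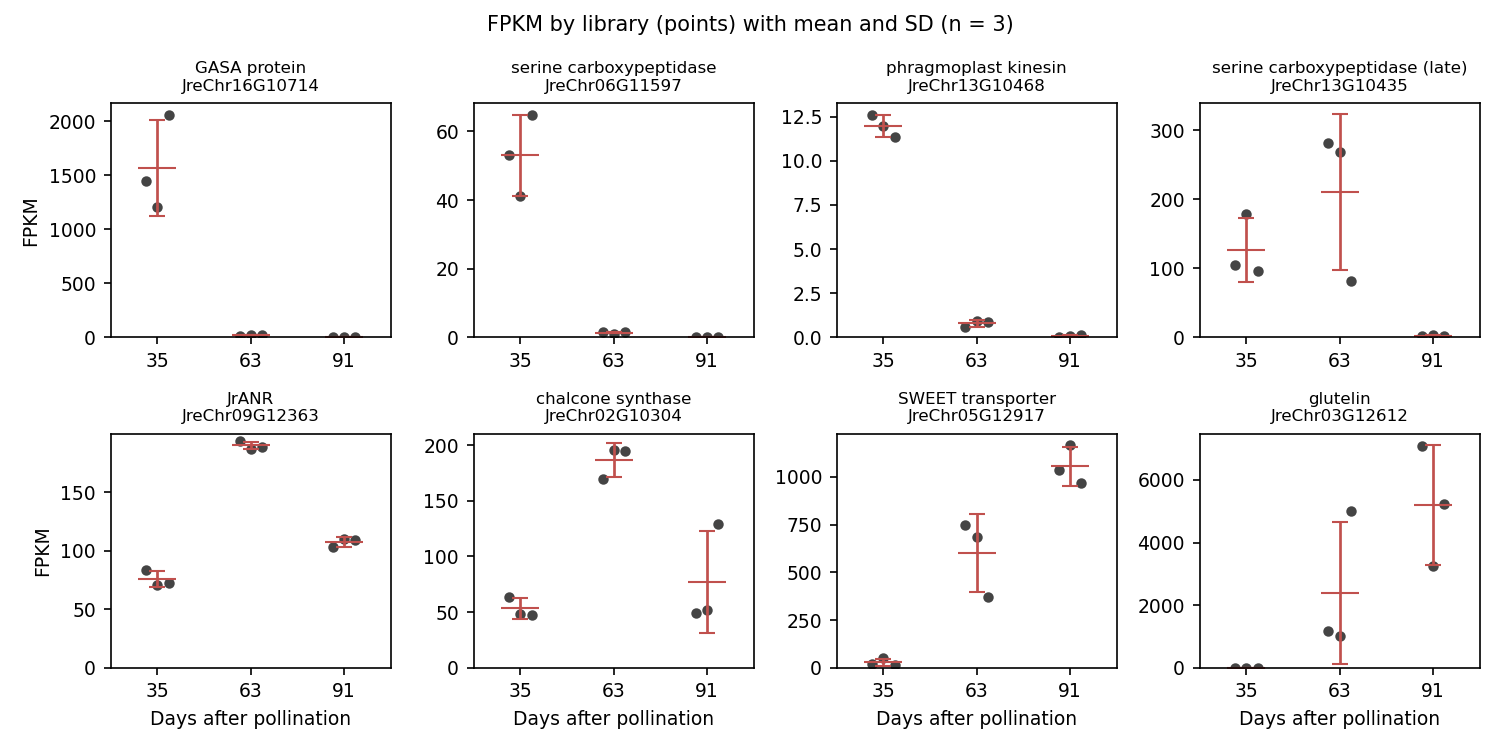
FPKM of 8 genes (y axis, linear and starting at 0) at 35, 63 and 91 DAP (x axis), with 1 point per library and bars giving the mean and SD of 3 libraries. The GASA gene, the carboxypeptidase JreChr06G11597 and the kinesin were near 0 by 63 DAP, the carboxypeptidase JreChr13G10435 fell after 63 DAP, JrANR and chalcone synthase were highest at 63 DAP, and the SWEET transporter and the glutelin rose.

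Transcription factor families each held rises and falls. Among tested members, 4 MYB genes rose and 5 fell of 17, 3 bHLH genes rose and 5 fell of 13, 3 NAC genes rose and 2 fell of 7 (no falls after quantile normalization), 4 AP2/ERF genes rose and 1 fell of 10, 2 homeobox genes rose and 5 fell of 13, and 1 MADS-box gene rose and 2 fell of 4. After quantile normalization the balance turned for MYB genes (7 rises, 4 falls) and homeobox genes (5 rises, 4 falls), and AP2/ERF genes had 7 rises. The NAC factor JreChr05G12914 was the most abundant of them, with 387, 384 and 382 FPKM at 35 DAP, 1596, 1353 and 1489.5 at 63 DAP, and 1707, 1848 and 1488 at 91 DAP (+2.12 ± 0.20, adjusted p = 5.1e-07, early). Another NAC factor, JreChr12G11748, was called higher at both steps, from 4.28, 6.195 and 3.68 FPKM through 39.7, 35.5 and 30.1 to 93.9, 101 and 85.9 (+4.07 ± 0.16, adjusted p = 4.72e-11). Its step on the log2 scale was larger before 63 DAP, while 34.2% of its rise in FPKM lay there.

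The MYB factor JreChr16G10330 rose early, from 10.3, 7.72 and 9.36 FPKM to 99.2, 80.5 and 105, and stood at 60.3, 84.7 and 95.3 at 91 DAP (+2.98 ± 0.25, adjusted p = 1.49e-07). Another MYB factor, JreChr06G10550, fell from 16.2, 16.1 and 15.7 FPKM to 0.318, 0.375 and 0.528 (-3.60 ± 0.15, adjusted p = 7.65e-11). The bHLH factor JreChr11G10834 dropped from 95.1, 106.5 and 99.9 FPKM through 8.29, 9.37 and 6.33 to 2.09, 1.03 and 2.25 (-5.21 ± 0.32, adjusted p = 5.5e-09), and JreChr09G12373, of the same family, rose early from 6.58, 6.75 and 7.34 FPKM to 23.1, 22.2 and 25.4 at 91 DAP (+1.64 ± 0.16, adjusted p = 5.91e-07). The homeobox factor JreChr16G10676 read 16.8, 11.1 and 18.6 FPKM at 35 DAP and was listed at 0, 0 and 0.063 at 63 DAP and at 0 in all 91 DAP libraries (adjusted p = 1.45e-09). The MADS-box factors JreChr01G12959 and JreChr01G12946 fell together, the first from 41.2, 59.5 and 32.95 FPKM to 3.51, 3.46 and 3.87 (-3.26 ± 0.31, adjusted p = 4.33e-07), and the third of that chromosome, JreChr01G12943, rose from 2.04, 2.03 and 2.28 FPKM to 13.3, 9.46 and 7.25 (+1.79 ± 0.40, adjusted p = 0.00139).

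Defence-related genes were higher in 14 of 25 tested members and lower in 3 (median +1.28), and 13 of the 14 rises were wound-induced proteins. The 18 tested genes of this kind share an annotation and a region of chromosome 3, so reads could be split among them and they do not count as independent. JreChr03G10900, the most abundant, read 13.9, 18.5 and 10.4 FPKM at 35 DAP, 84.9, 68.7 and 110.3 at 63 DAP, and 179.7, 144 and 225 at 91 DAP (+3.60 ± 0.24, adjusted p = 1.3e-08). The Bet v I family, named after the birch pollen allergen, split. JreChr01G13944 was listed at 0 in all 91 DAP libraries after 14.2, 31.2 and 12.1 FPKM at 35 DAP (adjusted p = 1.96e-08). JreChr05G11366 first fell, from 17.9, 43.4 and 10.6 FPKM to 3.18, 3.53 and 11.7, and then rose to 185, 222 and 291 (+3.43 ± 0.47, adjusted p = 2.07e-05).

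All 5 genes of the seed storage group rose from 35 to 63 DAP in these libraries, and 2 of them were called higher again from 63 to 91 DAP. That second step was not called for the glutelin JreChr03G12612 (limma, adjusted p = 0.183) or for JrFAD2 (adjusted p = 0.544). The group was chosen from annotation. The glutelins, oleosin and late embryogenesis abundant protein of the group were listed as embryo markers, while JrFAD2 was not. The tissue their RNA came from was not tested. The 11S storage globulin (glutelin) JreChr03G12612 read 0.131, 0.944 and 1.29 FPKM at 35 DAP, 1176, 1001 and 5004 at 63 DAP, and 7096, 3249 and 5236 at 91 DAP (+11.49 ± 0.76, adjusted p = 1.08e-08). The oleosin JreChr12G10222, which coats oil bodies, went from 0.276, 0.920 and 0.334 FPKM through 173, 155 and 144 to 639, 359.9 and 259.5 (+8.04 ± 0.36, adjusted p = 1.92e-10). JrFAD2, JreChr13G11197, the desaturase that turns oleic into linoleic acid, went from 8.13, 21.4 and 4.56 FPKM to 143, 111.4 and 162 and then to 319, 202 and 123 (+4.26 ± 0.57, adjusted p = 1.67e-05). All 5 listed genes were higher and early under every scaling, and all 5 stayed higher with any one library left out. In FPKM 2 of the 5 had made over 50% of their rise by 63 DAP, with a median share of 46.1%. Their summed level was 9.26, 24.1 and 7.05 FPKM at 35 DAP, 2112, 1895 and 6758 at 63 DAP, and 10133, 5066 and 7138 at 91 DAP. None of these genes was at 0 at 91 DAP, and the part of embryo RNA in the other rises and falls was not tested.

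Of 18 tested cytosolic ribosomal protein genes 10 were lower (7 after median-ratio scaling) and 2 higher, with a median of -0.46. The most abundant, JreChr13G10333, rose from 755, 652 and 868 FPKM to 1816, 1786 and 1559 (+1.19 ± 0.17, adjusted p = 2.3e-05). Of 8 photosynthesis genes 4 were lower and none higher as deposited, with 2 higher and 3 lower after quantile normalization and 1 higher after median-ratio scaling, and the chlorophyll a/b binding protein JreChr10G10089 fell from 6.25, 6.24 and 5.74 FPKM to 2.47, 1.88 and 0.910 (-1.40 ± 0.21, adjusted p = 4.4e-05). The other chlorophyll a/b binding protein, JreChr04G11926, overlapped between the stages, with 25.02, 24.5 and 30.7 FPKM at 35 DAP and 23.2, 24.5 and 59.2 at 91 DAP (adjusted p = 0.472).

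Further described genes with large changes belonged to no group. JreChr03G12410, of the lipid transfer and seed storage protein family, fell at both steps from 210.1, 179.9 and 276 FPKM through 16.7, 7.49 and 9.28 to 0.677, 0.325 and 0.422 (-7.23 ± 0.34, adjusted p = 2.85e-10). The plastocyanin-like protein JreChr03G11093 fell late, with 146, 184 and 127 FPKM at 35 DAP, 96.2, 67.5 and 19.8 at 63 DAP, and 3.30, 1.65 and 0.306 at 91 DAP (-5.95 ± 0.47, adjusted p = 7.38e-08). The kinase JreChr14G11417 held 31.3, 41.1 and 28.5 FPKM at 35 DAP and 24.4, 32.3 and 14.7 at 63 DAP and then fell below 0.6 FPKM (-4.53 ± 0.24, adjusted p = 9.1e-10). JreChr06G11560, described as the precursor of a co-receptor of the brassinosteroid receptor, fell at both steps, from 22.1, 27.7 and 23.7 FPKM to 1.81, 2.98 and 3.53 (-2.78 ± 0.26, adjusted p = 3.36e-07).

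The largest changes of all were in genes without a description. JreChr11G12183 fell from 3033, 2678 and 4112 FPKM through 107, 213 and 131 to 1.05, 0.646 and 0.334 (-10.93 ± 0.42, adjusted p = 4.31e-11). JreChr11G11555 fell from 7566, 6741 and 9469.7 FPKM through 556, 399.5 and 316 to 8.63, 4.74 and 5.18 (-10.13 ± 0.27, adjusted p = 1.72e-12). Its steps were -4.25 and -5.89 on the log2 scale, a late class that was lost with 0.1 as the added value and was not kept under all scalings, and 94.7% of its fall in FPKM lay before 63 DAP. JreChr03G12755 was listed at 0 in all 35 DAP libraries, at 39.7, 47.8 and 238 FPKM at 63 DAP, and at 16886, 10682 and 3118 FPKM at 91 DAP (adjusted p = 5.07e-10). JreChr04G11776 rose early, from 0.227, 0.385 and 0.595 FPKM through 1165, 989.6 and 4640.3 to 6113, 2407 and 4621 (+11.52 ± 0.71, adjusted p = 4.8e-09), and like the glutelins it was highest at 63 DAP in the third library.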

How the data were processed

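RNA-seq libraries of walnut endopleura, 3 for each of 5 stages, were grouped by the stage in their labels. The authors mapped reads with HISAT2 2.1.0 to the J. regia assembly they had built, estimated expression with StringTie 1.3.5 and deposited it as FPKM for 39414 genes. Coordinates are those of that genome, and no source used here names a sequencing batch. From these values log2(FPKM + 1) was tested with limma 3.58.1 in R 4.3.3 (eBayes with trend, all 15 libraries, 1 coefficient per stage) for the 22310 genes that reached 1 FPKM in 3 or more libraries. Tests were two-sided, with Benjamini-Hochberg adjustment over these genes and a threshold of 0.05. The timing test compared the 2 steps around 63 DAP.

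Relative sequencing depth of the 9 libraries, from the steps of the lowest values, ran from 1.0 to 1.349 of the first library. It rests on few genes per library, and absolute depth is unknown.

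The study's supplementary tables describe 2768 of the genes in regions it examined. No identifier matched the RefSeq gene table. The members and the gene groups were chosen with earlier results of these data known. Genes named are those the study names, the 2 largest rises and 2 largest falls without overlap and the most abundant member of each group, the 8 largest rises and falls among described genes, the 2 largest over all genes, and the 5 clearest early, late and turning genes, apart from those said to be chosen later. Not every one is printed. The alternatives were a pseudocount of 0.1, 3 scalings, other filters and fits, the replicate number as a block and each library left out in turn. The fit was tested on simulated data.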

Additional observations from a re-analysis of the deposited data

How the results depend on the processing

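Of the 104 genes under the naming rule, 87 kept their direction and side of the threshold under every alternative. The uncalled JreChr13G10538 changed sign as TPM (-0.046), and the uncalled JreChr04G11926 ran from -0.152 to 0.506 with single libraries left out, below 0 without 91 DAP replicate 3. A mean FPKM of at least 5 removed weakly expressed genes and left 5422 genes lower at 91 than 35 DAP, 3903 lower at 63 than 35 DAP, 2710 lower at 91 than 63 DAP, 1925 early genes and 100 called group members against 166. Quantile normalization gave 7880 genes higher at 91 than 35 DAP and 3269 higher at 91 than 63 DAP. The median share of the change before 63 DAP, 66.5%, became 70.1% after quantile normalization and 64.1% with a pseudocount of 0.1. With a minimum log2 change of 1, the counts were 7087 (2222 higher, 4865 lower) for 91 against 35 DAP, 4864 (1903 and 2961) for 63 against 35 DAP and 2382 (512 and 1870) for 91 against 63 DAP. Early and late genes numbered 5946 and 1840 where timing was read from which step was called. With single libraries left out, calls ranged from 12030 to 13648 (91 against 35 DAP), early genes from 2286 to 3139, late genes from 427 to 711, and group members from 156 to 170. Rises from 63 to 91 DAP ranged from 1073 to 1838 and turning genes from 228 to 403, both lowest without 91 DAP replicate 2. The cause of these shifts was not tested.

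Whether replicate numbers pair the libraries was not settled. Same-numbered libraries deviated together (r over 0.1) in 10 of 30 pairs, and differently numbered ones were not compared. With a replicate block 13126 genes were called between 91 and 35 DAP (4884 higher) and 2830 were early. Depth limits what can be said of genes below about 1 FPKM, whose timing class depended on the pseudocount.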

Other observations

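The later stages show where some of these genes went after 91 DAP, given here as mean FPKM of 3 libraries without a test. JrANR (JreChr09G12363) stood at 107 at 91 DAP, 289 at 119 DAP and 808 at 147 DAP, and chalcone synthase (JreChr02G10304) at 77.0, 435 and 781, so the level both reached at 63 DAP was exceeded at both later stages. The seed storage genes parted from each other. The oleosin JreChr12G10222 went on to 581 and 1050.5, while JrFAD2 (JreChr13G11197) went from 309 at 119 DAP to 19.1 at 147 DAP and the glutelin JreChr03G12612 from 5272 to 407. The kinesins JreChr13G10468 and JreChr09G12371 stayed below 1 FPKM.

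JreChr03G12755, an undescribed gene listed at 0 in all 35 DAP libraries, had a mean of 32562 FPKM at 119 DAP and 58450.2 at 147 DAP. The late-falling carboxypeptidase JreChr13G10435 was at 6.54 and 22.4 at these stages. The wound-induced protein gene JreChr03G10825 reached 53.7 and 13.7 after 135, 79.4 and 218 in the libraries of 91 DAP.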
